A study of Bos taurus with 9 samples.

Results

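The genes described here encode 9 abundant plasma proteins made by the liver: albumin (*ALB*), transthyretin (*TTR*), retinol-binding protein 4 (*RBP4*), transferrin (*TF*), the vitamin D-binding protein (*GC*), paraoxonase 1 (*PON1*), the alpha-1-microglobulin and bikunin precursor (*AMBP*), fetuin-A (*AHSG*) and hemopexin (*HPX*). They were taken by symbol from a table of 28786 genes, and each of the 9 symbols had a single row. The set was chosen with earlier results of these data known. Liver biopsies were taken from lactating Holstein cows during the second week of 1 of 3 treatments, with 3 cows and 3 libraries in each group. TN cows were kept in thermoneutrality, HS cows were kept in a hot environment, and PF cows were kept in thermoneutrality but were given only as much feed as the HS cows ate. All 3 groups were milking cows that were first acclimated in thermoneutrality, and PF cows set the effect of lower intake apart from that of heat.

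Hepatocytes secrete most of the protein in plasma, and many of these proteins carry a ligand that is poorly soluble or harmful when free. During inflammation, cytokines such as interleukin 6 turn the liver toward positive acute phase proteins, among them haptoglobin and the serum amyloid A proteins, while the output of negative acute phase proteins such as albumin, transthyretin, retinol-binding protein and transferrin falls. In cattle, low plasma albumin, retinol-binding protein and paraoxonase are used as signs of such a shift. Hemopexin and the *AMBP* products are listed with the carriers here for what they bind, although hemopexin counts as a positive acute phase protein in some species.

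Between 16874444 and 22557047 reads were counted on genes per library, and the smallest count of any of the 9 genes in any cow was 5770, so counting error was small beside the differences between cows. Levels are given as TMM-normalized CPM (read counts scaled to a common library size), which depend on transcript length and are therefore compared between cows and not between genes. All 10 hepatocyte markers on the list used (such as *APOB*, *CPS1* and *ASGR1*) were detected in every library. Their summed level was 8029 CPM in TN replicate 1 and between 13471 and 30303 CPM in the other 8 libraries. The acute phase gene *FGB* made up 28.9 to 72.4% of that sum, and the 9 markers without it summed to 5704 CPM in TN replicate 1 and to 6221 to 11872 CPM in the other libraries. TN replicate 1 stood apart from the other cows. The differences of the 9 genes from TN, and the counts of the other lists (cell markers aside), are therefore given with and without that cow. In biopsies, fewer hepatocytes and less RNA of a gene per hepatocyte cannot be told apart.

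Transthyretin and retinol-binding protein travel together in plasma, the first carrying thyroxine and the second carrying retinol out of the liver. *TTR* was at 865, 4098 and 3368 CPM in TN replicates 1 to 3, at 3070.4, 5711 and 3303 CPM in PF replicates 1 to 3, and at 1949, 2533 and 5568 CPM in HS replicates 1 to 3. The groups overlapped, with HS replicates 1 and 2 below all PF cows and HS replicate 3 close to the highest PF cow. *RBP4* was at 519, 3480.3 and 2448 CPM in TN, at 3694, 4006 and 4639.7 CPM in PF, and at 2555, 3443 and 7226 CPM in HS cows, in the order of the replicates. All PF cows lay above all TN cows in *RBP4*, and the HS cows overlapped with both other groups, with HS replicate 3 the highest of all. *GC*, the carrier of vitamin D and a scavenger of free actin, was at 833, 3954 and 2826 CPM in TN, at 5798, 3537 and 3334 CPM in PF, and at 2561, 3584 and 5169 CPM in HS cows. For *GC* every pair of groups overlapped, and PF replicate 1 was highest.

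The carriers of iron and heme differed from each other in which cow was highest. *TF*, whose product takes iron to cells, was at 2014, 12534 and 8423 CPM in TN, at 12266, 10633 and 10016 CPM in PF, and at 5425, 8967 and 18308 CPM in HS cows. The PF cows were close together, while both the lowest TN and the highest HS value lay far outside their range. *HPX*, whose product clears free heme, was at 1064, 2913 and 4371 CPM in TN, at 3879, 5322 and 3401 CPM in PF, and at 3262, 7652 and 4669 CPM in HS cows. *HPX* was the only one of the 9 genes that was highest in HS replicate 2.

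*ALB*, the main protein of plasma and a carrier of fatty acids, hormones and metals, was at 8768, 46704 and 36087 CPM in TN, at 82514, 49294 and 54438 CPM in PF, and at 36176, 33905 and 81431 CPM in HS cows. Each PF cow was above each TN cow, and HS replicates 1 and 2 were below all PF cows while HS replicate 3 nearly matched the highest of them. *PON1*, an esterase carried on high density lipoprotein, was at 258, 751 and 732 CPM in TN, at 1280.3, 1230.5 and 1047 CPM in PF, and at 522, 654 and 974 CPM in HS cows. This was the gene with the clearest order, since every PF cow was above every cow of both other groups, while TN and HS overlapped. The PF mean was 1186 ± 123 CPM, against 581 ± 279 CPM in TN and 717 ± 233 CPM in HS (SD, n = 3 each).

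*AMBP*, which encodes a heme-binding antioxidant and a protease inhibitor in a single precursor, was at 3687, 10177 and 10083 CPM in TN, at 11893, 13899 and 11374 CPM in PF, and at 6199, 10396 and 14227 CPM in HS cows. PF cows were again all above TN cows, and HS cows lay on both sides of them. *AHSG*, whose product keeps calcium phosphate in solution, was at 631, 4229.6 and 2550.5 CPM in TN, at 5890.3, 5321 and 3871 CPM in PF, and at 3091, 3668 and 9054 CPM in HS cows. HS replicate 3 was highest in *AHSG*, as it was in *RBP4*, *TF* and *AMBP*, while PF replicate 1 was highest in *ALB*, *GC* and *PON1* and PF replicate 2 in *TTR*.

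**Figure D1:**
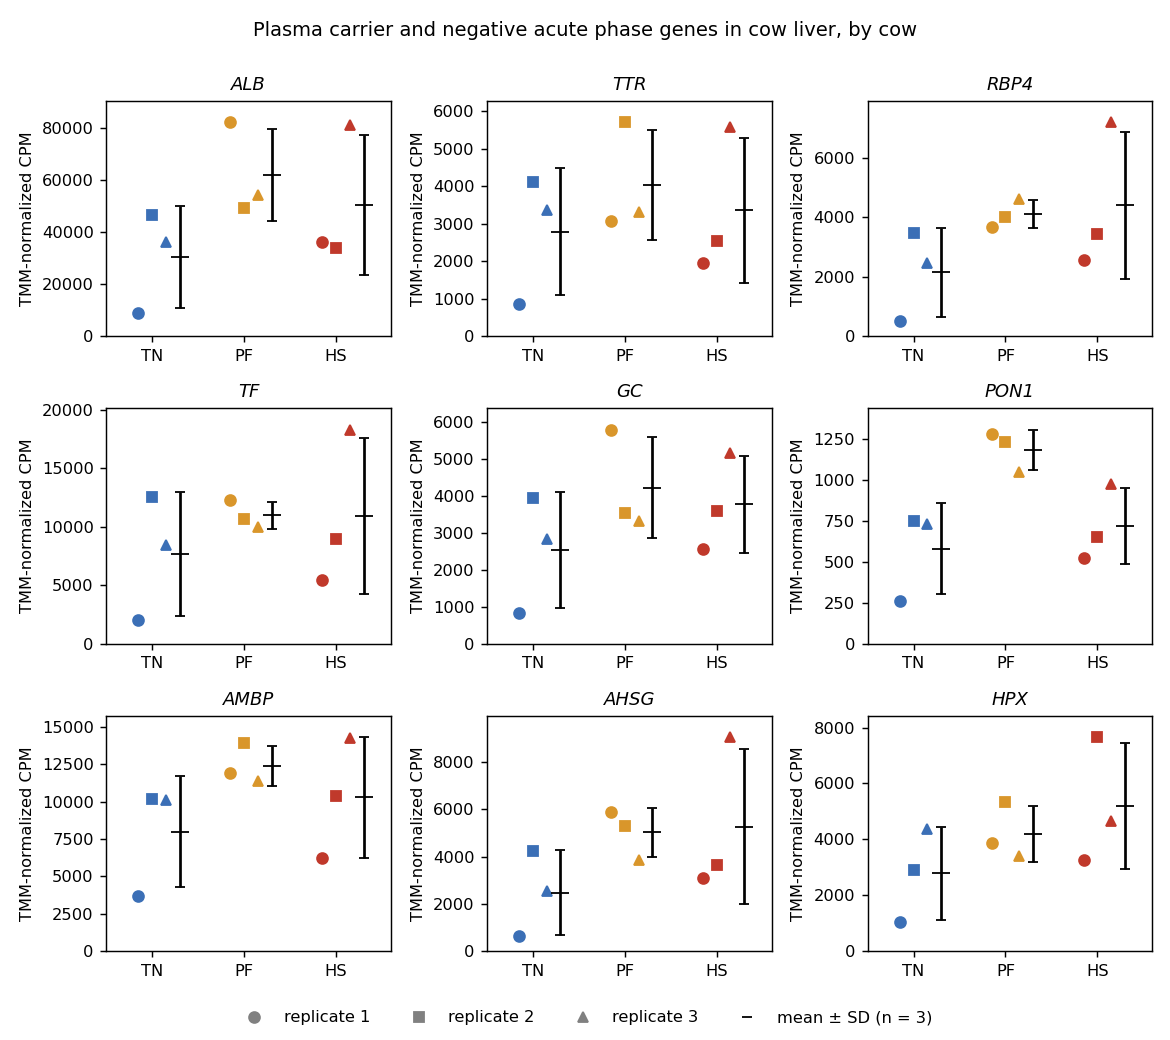
TMM-normalized CPM (vertical axes, from 0) of the 9 carrier genes in each cow, by group, with circles, squares and triangles for replicates 1 to 3 and bars for the mean ± SD of 3 cows. TN replicate 1 is the lowest cow in every panel, and the PF cows lie above all TN cows in *ALB*, *RBP4*, *PON1* and *AMBP*.

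All 9 genes had their lowest level in TN replicate 1. The lowest of the other 8 cows was between 1.68-fold (*AMBP*) and 4.72-fold (*RBP4*) higher than TN replicate 1. Among the 2601 tested genes with a mean of at least 50 CPM, 51.2% were lowest in the same cow, and so were 5 of the 10 hepatocyte markers. The part of this in the differences from TN was not tested, but each is given without that cow as well.

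The 9 genes together took 2.47, 8.50 and 6.58% of all counts in TN replicates 1 to 3, 12.3, 9.18 and 9.59% in PF replicates, and 7.41, 6.88 and 12.7% in HS replicates. The mean was 5.85 ± 3.08% in TN, 10.4 ± 1.71% in PF and 9.01 ± 3.24% in HS (SD, n = 3 each). PF cows were all above TN cows, and HS cows overlapped with both groups. *ALB* made up 45.3 to 63.3% of the counts on the 9 genes in each cow. The 13 genes for proteins on the mitochondrial genome took 13.6 to 22.2% of the counts in TN, 6.90 to 7.79% in PF and 3.84 to 5.68% in HS cows, so that a share of all counts has less room for other genes in TN. Their part in the lower share of the carriers in TN was not tested. Of the counts outside these mitochondrial genes, the carriers took 3.17 to 9.83% in TN, 9.88 to 13.2% in PF and 7.29 to 13.2% in HS cows, which left TN and PF without overlap by a small margin.

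**Figure D2:**
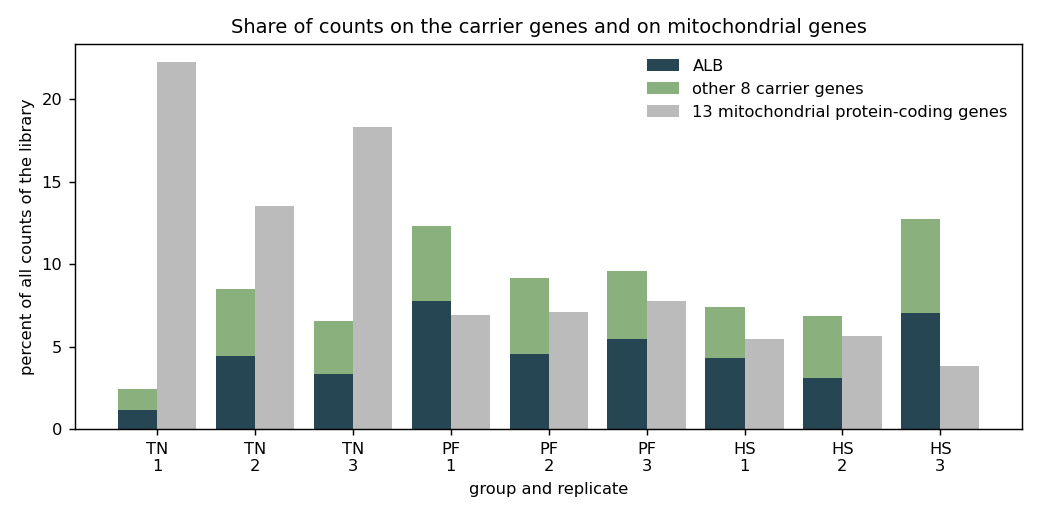
Percent of all counts of a library (vertical axis, from 0) on *ALB* and the other 8 carrier genes, stacked, and on 13 mitochondrial protein-coding genes, for each cow. The carriers take 2.47% of counts in TN replicate 1 and 12.7% in HS replicate 3, and the mitochondrial share is highest in the 3 TN cows.

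Heat stress was first compared with thermoneutrality at free intake. All 9 genes had higher fitted levels in HS than in TN cows, as had 49.3% of all genes tested, and 0 of the 9 passed the test. With edgeR (quasi-likelihood F test on 6 libraries, Benjamini-Hochberg FDR under 0.1 and a fold change over 1.5), 0 of the 9 genes were called, beside 0.0892% of all 14582 genes tested. At an unadjusted p under 0.05 the edgeR count was also 0, beside 9.36% of all genes. DESeq2 called 0 of the 9, beside 1.75% of all genes it tested. Its smallest unadjusted p values among the 9 were 0.0346 for *HPX* (FDR 0.457) and 0.0380 for *RBP4* (FDR 0.470). The 9 log2 fold changes ran from 0.27 in *TTR* to 1.09 in *AHSG* with a median of 0.57, beside a median of -0.01 over all genes tested. For *ALB* the log2 fold change was 0.72 (95% confidence interval -1.10 to 2.55) with an FDR of 0.771 in edgeR, a wide interval on both sides of 0. *RBP4* differed by 1.03 (-0.54 to 2.61) and *HPX* by 0.89 (-0.47 to 2.25) on the log2 scale. For 0 of the 9 genes were the HS and TN cows without overlap, beside 16.1% of all genes.

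These differences changed when single cows were left out. Without TN replicate 1, the median log2 fold change of the 9 genes between HS and TN cows was 0.15, *TTR* was at -0.16 and *PON1* at -0.05, and the highest values were 0.64 in *AHSG*, 0.57 in *RBP4* and 0.51 in *HPX*. Without HS replicate 3 the median was 0.19, and without TN replicate 2 it was 1.04.

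Feed restriction without heat was then compared with free intake. All 9 genes had higher fitted levels in PF than in TN cows, as had 48.8% of all genes tested, and *PON1* had the largest difference and the smallest p. In this comparison edgeR called 0 of the 9 genes and 0% of all 14580 genes tested, and DESeq2 called 0 of the 9, beside 0.555% of all genes. The log2 fold changes ran from 0.52 in *TF* to 1.03 in *PON1*, with a median of 0.73 beside -0.01 over all genes. For *PON1* the log2 fold change was 1.03 (SE 0.43, 95% confidence interval 0.09 to 1.97), with an unadjusted p of 0.0351 and an FDR of 0.708 in edgeR. It was the only one of the 9 genes under an unadjusted p of 0.05 in edgeR, beside 6.88% of all genes and 2.99% in that direction. In DESeq2 the unadjusted p was 0.00388 for *PON1*, 0.0191 for *ALB*, 0.0243 for *AHSG* and 0.0381 for *RBP4*, with FDRs from 0.284 to 0.615. For *ALB* and *AHSG* the log2 fold change was also 1.02, with intervals of -0.28 to 2.33 and -0.24 to 2.29. PF cows were all above TN cows in 4 of the 9 genes (*ALB*, *RBP4*, *PON1* and *AMBP*), beside 13.2% of all genes in either direction and 6.81% in this one.

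Without TN replicate 1 the 9 genes were still higher in PF than in TN cows, with a median of 0.32 and values from 0.07 in *TF* to 0.68 in *PON1*. *PON1* then had an SE of 0.23 and an unadjusted p of 0.0147 in edgeR, with an FDR of 1.00. *ALB* was at 0.59 (0.06 to 1.11) in the same fit. Without TN replicate 2 the median was 1.21, so that both of these TN cows moved the size of the difference.

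Heat stress was lastly compared with pair-feeding, the groups matched for intake. Every HS cow had less *PON1* than every PF cow, and the other 8 genes had smaller differences in both directions. Called were 0 of the 9 genes in edgeR, beside 0.0276% of all 14510 genes tested, and DESeq2 called 0, beside 0.771%. For *PON1* the log2 fold change was -0.73 (SE 0.31, 95% confidence interval -1.42 to -0.04), with an unadjusted p of 0.0399 and an FDR of 0.908 in edgeR. It was the only one of the 9 genes under an unadjusted p of 0.05, beside 5.32% of all genes and 2.25% in that direction. It was also the only one whose HS and PF cows did not overlap, beside 10.5% of all genes and 4.58% in that direction. The others ran from -0.30 in *ALB* (-1.27 to 0.66) to 0.30 in *HPX* (-0.54 to 1.14), with *TF* at -0.02 (-0.97 to 0.94). The median of the 9 was -0.17, beside 0.01 over all genes.

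Leaving out HS replicate 3 changed this comparison as well. Without it, 8 of the 9 genes were lower in HS than in PF cows, with a median log2 fold change of -0.58. *PON1* was at -1.01 (unadjusted p 0.00699 and FDR 0.609 in edgeR), *TTR* at -0.85 and *ALB* at -0.83, while *HPX* stayed on the other side at 0.38. Without HS replicate 1 the median was 0.04. In a test of the 3 groups together, edgeR called 0 of the 9 genes, beside 0.0464% of 15073 genes tested, and 0 had an unadjusted p under 0.05, beside 7.86%. *PON1* had the smallest unadjusted p of the 9 in that test, 0.0694, with an FDR of 0.668 in edgeR and of 0.299 in DESeq2.

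**Figure D3:**
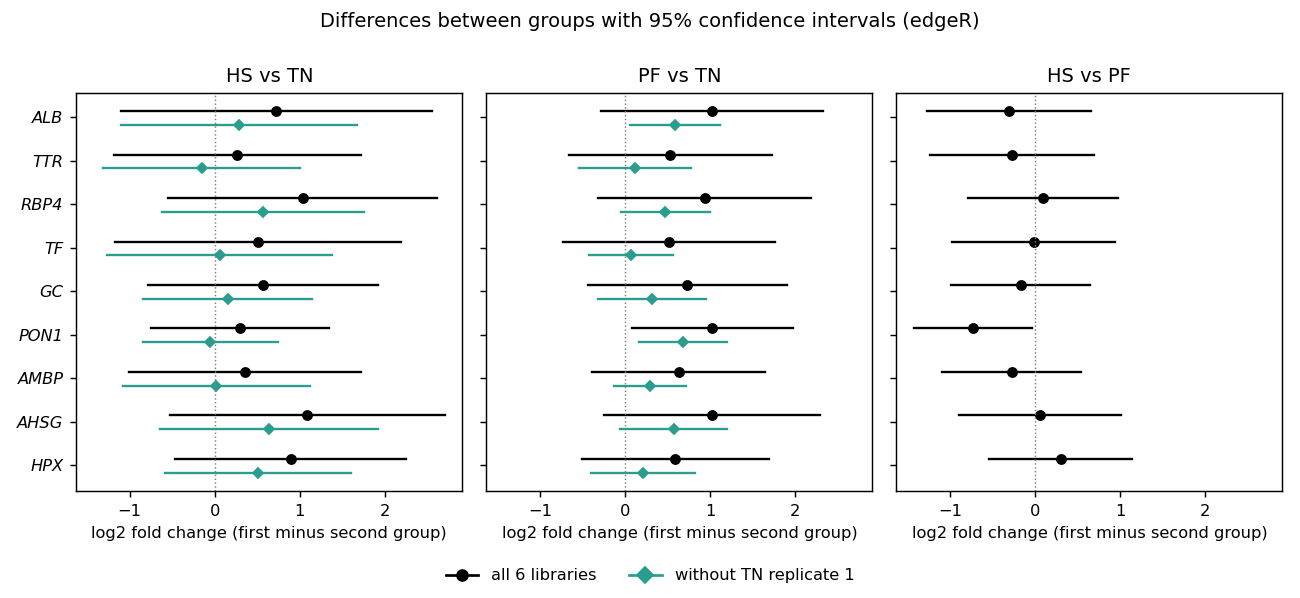
Log2 fold changes (horizontal axes, first minus second group) of the 9 carrier genes in the 3 comparisons, with 95% confidence intervals from edgeR, for all 6 libraries (black) and without TN replicate 1 (green, in the comparisons with TN). With all libraries only the intervals of *PON1* in PF vs TN (0.09 to 1.97) and HS vs PF (-1.42 to -0.04) lie on one side of 0.

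The 9 genes moved together from cow to cow. Over the 9 libraries, Pearson's r of the log2 CPM was 0.684 to 0.971 in the 36 pairs, with a median of 0.902, and these cows share 3 treatments and 1 cow that was lowest throughout. Without TN replicate 1 the range was -0.194 to 0.878 with a median of 0.663 over 8 libraries. *HPX* then stood apart from the rest, at -0.194 to 0.368 with the other 8 genes, while the 28 pairs among those 8 genes had 0.457 to 0.878. These values are descriptions of 9 or 8 cows and were given no test.

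The genes most like each carrier were sought among 2592 other genes with a mean of at least 50 CPM, by Pearson's r of log2 CPM over 9 libraries. For *ALB* they were *RNF128* (0.995), *MFSD1* (0.986) and *HPRT1* (0.981). *HPX* was most like the acute phase antiprotease *SERPINA3* (0.990) and the fibrinogen chain *FGB* (0.989). *RBP4* was most like *VTN* (0.987), *EMC10* and *IGFBP2*, and *AMBP* was most like *APOH* (0.983), *SOD1* and *FAHD2A*. The others were led by *UQCRC1* for *TTR* (0.993), *MGC137211* for *TF* (0.985), followed by *KNG1*, *PERP* for *GC* (0.993), *PLA2G12B* for *PON1* (0.976) and *TMBIM6* for *AHSG* (0.991). Without TN replicate 1, *HPX* was again most like *SERPINA3* and *FGB*, *ALB* had *RNF128* and *MFSD1* again, and *RBP4* had 3 different genes. *TF* was then led by *GCDH*, *PON1* by *NSMCE1* and *AMBP* by *ADH1C*. *UQCRC1*, *PERP* and *TMBIM6* still led for *TTR*, *GC* and *AHSG*.

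Ratios of 2 carriers within a library do not depend on how the library was scaled, and differences in transcript length cancel between cows. The following pairs were picked after their values were seen, so no p-value is given for them. Counts of *TTR* over counts of *RBP4*, whose products form a complex, were at 1.67, 1.18 and 1.38 in TN, at 0.831, 1.43 and 0.712 in PF, and at 0.763, 0.736 and 0.771 in HS cows. The HS cows were close together and below all TN cows, TN replicate 1 included, and PF replicate 2 was among the TN cows. *TF* over *AHSG* was at 3.19, 2.96 and 3.30 in TN, at 2.08, 2.00 and 2.59 in PF, and at 1.76, 2.44 and 2.02 in HS cows, so that TN lay above both other groups. *PON1* over *AMBP* was at 0.0700, 0.0738 and 0.0726 in TN, at 0.108, 0.0885 and 0.0921 in PF, and at 0.0842, 0.0629 and 0.0685 in HS cows, with PF above both other groups. Of the 36 pairs of carriers, 19.4% had ratios without overlap between HS and TN, 16.7% between HS and PF and 13.9% between PF and TN. Over all pairs of genes of at least 50 CPM these shares were 21.1, 12.6 and 18%, so the carriers lay near the background.

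**Figure D4:**
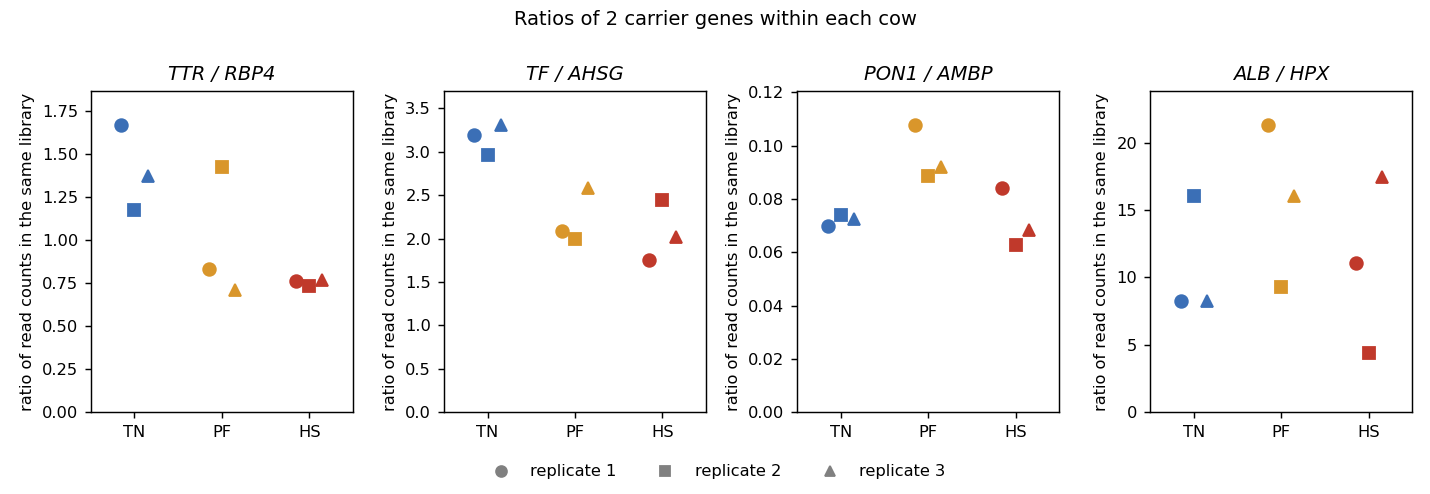
Ratio of read counts of 2 carrier genes in the same library (vertical axes, from 0) for each cow, by group, with circles, squares and triangles for replicates 1 to 3. *TTR* over *RBP4* lies between 0.736 and 0.771 in HS cows and between 1.18 and 1.67 in TN cows, while *ALB* over *HPX* overlaps in all groups and is lowest in HS replicate 2.

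Positive acute phase genes were set beside the carriers. *HP*, which encodes haptoglobin, was at 14.6, 134 and 846 CPM in TN, at 9.18, 1103 and 210 CPM in PF, and at 1723, 19381 and 234 CPM in HS cows. HS replicate 2 was far above every other cow, whereas HS replicate 3 was within the range of the other groups. *SAA3*, a serum amyloid A gene, was at 6.13, 5.13 and 9.84 CPM in TN, at 13.1, 27.0 and 20.3 CPM in PF, and at 69.2, 164 and 17.6 CPM in HS cows. Its HS and PF cows were all above its TN cows, with HS replicates 1 and 2 highest. *HAMP*, the iron hormone hepcidin, was at 111, 99.9 and 51.9 CPM in TN, at 72.0, 684 and 145 CPM in PF, and at 530, 527 and 418 CPM in HS cows. HS cows were all above TN cows in *HAMP*, and PF replicate 2 was the highest of all.

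Of the 23 positive acute phase genes on the list, 22 were tested in each comparison. All 22 had higher fitted levels in HS than in TN cows, as had 49.3% of all genes tested, with a median log2 fold change of 0.95. Of them edgeR called only *HAMP* (log2 fold change 2.47, SE 0.37, FDR 0.0919), beside 0.0892% of all genes. DESeq2 called 4 (*A2M*, *HAMP*, *ITIH4* and *SAA3*), beside 1.75% of all genes. In edgeR 6 of 22 were under an unadjusted p of 0.05, beside 9.36% of all genes. *SAA3* was at 3.56 (FDR 0.184 in edgeR) and the protease inhibitor *A2M* at 2.65 (FDR 0.252 in edgeR). Between HS and PF cows 17 of the 22 were higher and 5 lower, with a median of 0.35, and 7392 of all 14510 genes tested were higher. In that comparison 0 of the 22 were called in edgeR or DESeq2, and 7 were under an unadjusted p of 0.05 in edgeR, beside 5.32% of all genes. *A2M* (2.31), *SAA3* (2.05) and *ITIH4* (1.78) had the smallest p. Between PF and TN cows 19 were higher, beside 48.8% of all genes, and 0 were called in edgeR. DESeq2 called 2, beside 0.555% of all genes. The median was 0.64, with *SAA3* at 1.52, *CD14* at 1.22 and *LBP* at 1.74. The *HAMP* call in HS against TN was lost when any single cow of either group was left out. Without TN replicate 1, 20 of the 22 genes were higher in HS than in TN cows with a median of 0.61, and 15 were higher in PF than in TN cows with a median of 0.29, with 0 called in edgeR and 5 under an unadjusted p of 0.05 in each. Of all genes in these fits, 7614 of 14870 were higher in HS than in TN cows and 7539 of 14865 in PF than in TN cows. Under an unadjusted p of 0.05 in edgeR were 963 and 647 of them.

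The carriers and the positive acute phase genes were then read cow by cow. HS replicate 2, with the highest *HP* and *SAA3*, had the lowest *ALB* of the 8 cows other than TN replicate 1 and was below TN replicates 2 and 3 in *TTR* and *PON1*, while its *HPX* was the highest of all 9 cows. HS replicate 3, with the lowest *HP* and *SAA3* of its group, had the highest level of its group in 8 of the 9 carriers. HS replicate 1, with *HP* between those of the other HS cows, was below HS replicate 2 in every carrier except *ALB*. It had 1949 against 2533 CPM in *TTR* and 522 against 654 CPM in *PON1*. PF replicate 2, with the highest *HP* of the PF cows, was also the highest of them in *TTR*, *AMBP* and *HPX*. TN replicate 1 was lowest in the carriers and, with PF replicate 1, among the lowest in *HP*. Over the 8 libraries without TN replicate 1, the median Pearson's r with the 22 positive acute phase genes was 0.63 for *HPX*, with 21 of 22 values above 0, and -0.19 for *ALB*, with 8 of 22 above 0. The medians of the other 7 carriers lay between -0.004 and 0.173.

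**Figure D5:**
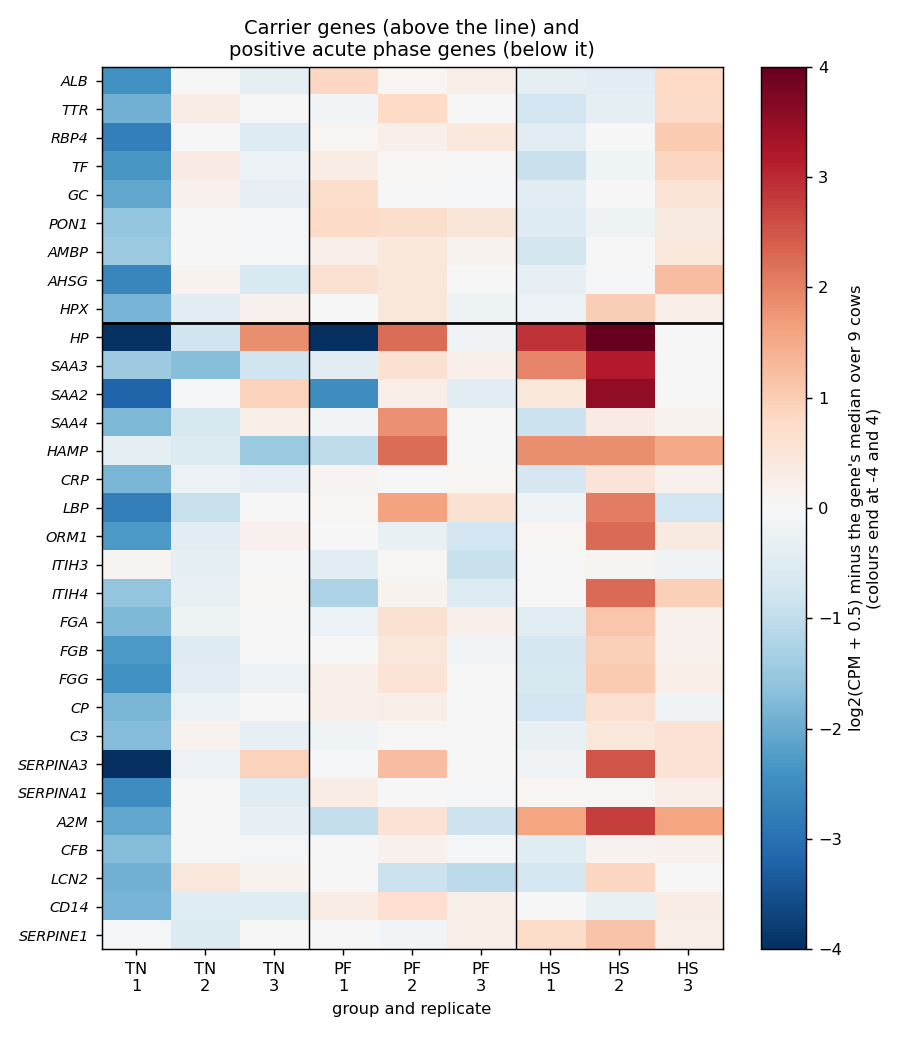
Log2(CPM + 0.5) of the 9 carrier genes (above the line) and 22 positive acute phase genes (below it) in each cow, minus the gene's median over 9 cows, with colours ending at -4 and 4. HS replicate 2 is high in *HP*, *SAA3* and *HPX*, HS replicate 3 is high in most carriers, and TN replicate 1 is low in nearly all genes of both lists.

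Other plasma carriers were read from a list of 25 genes of apolipoproteins, hormone binders and related proteins. Of these, 18 were higher and 7 lower in HS than in TN cows, with a median log2 fold change of 0.48. In edgeR 0 were called and 2 were under an unadjusted p of 0.05, beside 9.36% of all genes. DESeq2 called 1, beside 1.75% of all genes. The smallest p values belonged to the apolipoprotein *APOA4* (1.05), to *IGFALS* (0.86), which stabilises circulating IGF, and to the thyroxine-binding globulin *SERPINA7* (0.68). Between HS and PF cows 11 were higher and 14 lower, 0 were called in edgeR and 1 (*HRG*) in DESeq2, and the median was -0.02. The 2 genes under an unadjusted p of 0.05 in edgeR were both lower in HS cows and did not overlap. Of all genes, 2.25% were under that p and 4.58% without overlap in this direction. These 2 listed genes were *HRG*, a heme and zinc binder (-1.11, FDR 0.564 in edgeR), and *PON3*, a relative of *PON1* on high density lipoprotein (-0.84, FDR 0.669 in edgeR). *PON3* was at 137, 249 and 303 CPM in TN, at 340, 459 and 324 CPM in PF, and at 223, 234 and 172 CPM in HS cows, so that PF was above both other groups, as it was in *PON1*. *SERPINA6*, the cortisol carrier, was at -0.95 with an FDR of 1.00 in edgeR. Between PF and TN cows 21 of 24 tested genes were higher, with a median of 0.62, and 0 were called in edgeR or DESeq2. In edgeR 2 were under an unadjusted p of 0.05, beside 6.88% of all genes. The smallest p values were those of *APOA4* (1.62), *IGFALS* (0.72) and *APOA1* (1.11). With TN replicate 1 left out, 17 of 25 were higher in HS than in TN cows (median 0.26) and 22 of 24 were higher in PF than in TN cows (median 0.24), with 0 called in edgeR and 3 under an unadjusted p of 0.05 in each. Of all genes, 963 of 14870 in HS vs TN and 647 of 14865 in PF vs TN were under that p in edgeR.

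Genes that handle the ligands of the carriers were read from a list of 28, of which 20 were tested in each comparison. *DIO1*, which deiodinates the thyroxine that transthyretin carries, fell in HS cows against both other groups. It was at 280, 267 and 463 CPM in TN, at 503, 428 and 343 CPM in PF, and at 67.4, 52.5 and 59.9 CPM in HS cows, and every HS cow was far below every other cow. Its log2 fold change was -2.50 (SE 0.32, FDR 0.0684 in edgeR) against TN and -2.83 (SE 0.28, FDR 0.00294 in edgeR) against PF. The call against PF was made in each alternative run, and the call against TN was lost when TN replicate 3 or any single HS cow was left out. *DIO1* was the only gene of the 20 that edgeR called in either comparison, and 0 were called between PF and TN cows in edgeR or DESeq2. Between HS and TN cows 13 of the 20 were higher and 7 lower. Of these, 1 higher and 2 lower genes were under an unadjusted p of 0.05 in edgeR, beside 9.36% of all genes. Between HS and PF cows 8 were higher and 12 lower, with 1 and 2 of these under that p, beside 5.32%. Between PF and TN cows 14 were higher and 6 lower, and 1 was under that p, beside 6.88% of all genes. In the fit without TN replicate 1, *DIO1* was at -2.61 in HS against TN (FDR 0.0774 in edgeR). It was again the only called gene of the list. In that fit 11 of 20 were higher and 3 were under an unadjusted p of 0.05, beside 963 of 14870 genes. In PF against TN without that cow 11 of 21 were higher, 0 were called and 0 were under that p, beside 647 of 14865 genes.

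*HMOX1*, which degrades the heme that hemopexin delivers, was at 56.2, 104 and 67.5 CPM in TN, at 76.5, 97.2 and 84.9 CPM in PF, and at 243, 124 and 296 CPM in HS cows. HS cows were above all others, with log2 fold changes of 1.53 (FDR 0.315) against TN and 1.35 (FDR 0.377) against PF in edgeR, and DESeq2 called both. Retinol handling showed smaller differences, with *LRAT*, which stores retinol as esters, at -0.73 between HS and TN (FDR 0.522 in edgeR). *CYP26A1*, which breaks down retinoic acid, was at -0.99 between HS and PF (FDR 0.908) and at 1.33 between PF and TN (FDR 0.697) in edgeR. Its PF values were 47.4, 23.2 and 11.4 CPM, so that the group mean rested on PF replicate 1. *FCGRT*, whose product returns albumin to the circulation, was at 0.69 between PF and TN (FDR 0.709 in edgeR), and the iron exporter *SLC40A1* was at 0.48 (FDR 0.722 in edgeR).

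Markers of other cell types were read in the same libraries. The 8 macrophage markers were all higher in HS than in PF cows, as were 7392 of all 14510 genes tested. Of these markers, 7 were at an unadjusted p under 0.05 in edgeR, beside 5.32% of all genes, and 0 were called in edgeR or DESeq2. Against TN cows 7 were higher in HS, with 1 under that p, beside 9.36% of all genes, and 1 called in DESeq2, beside 1.75%. In PF against TN 7 were lower, with 1 under that p, beside 6.88%, and 0 called in edgeR or DESeq2. The summed level of the 8 markers was 1796 to 3112 CPM in HS, 1019 to 1690 CPM in PF and 1234 to 2799 CPM in TN cows. No macrophage marker was at 0 in any cow. The 3 measured neutrophil markers summed to 35.0 to 124 CPM in HS, 7.46 to 53.3 CPM in PF and 15.9 to 31.5 CPM in TN cows. All 3 were higher in HS than in TN cows. Of them 2 were under an unadjusted p of 0.05 in edgeR, beside 9.36% of all genes. Against PF cows all 3 were also higher, with 2 under that p, beside 5.32%. DESeq2 called 2 against TN, beside 1.75%, and 0 against PF, beside 0.771%. Endothelial markers summed to 454 to 740 CPM in all 3 groups and overlapped between them. The hepatocyte markers summed to 19629 to 23320 CPM in PF, 13471 to 30303 CPM in HS and 8029 to 19612 CPM in TN cows. Without *FGB* the sums were 7782 to 9546 CPM in PF, 6221 to 11872 CPM in HS and 5704 to 8174 CPM in TN cows, and all groups overlapped. The part of these cell types in the differences of the carriers was not tested.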

How the data were processed

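Polyadenylated RNA of 9 liver biopsies was sequenced, and the values used are the authors' deposited raw counts per gene. Per the study's methods, reads were cleaned with fastp 0.23.2, aligned to ARS-UCD 1.2 with STAR 2.7.9a (at most 3 mismatches) and counted with featureCounts 2.0.3. The strand setting and the handling of multi-mapping reads are not given in the sources used here. Samples were grouped by their labels, and 0 columns were left unmapped. RefSeq names of ARS-UCD2.0 were used only to check symbols. They place *LOC101906884*, with at most 71 counts, across *AHSG*.

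Groups were compared 2 at a time (6 libraries per fit) by the quasi-likelihood F test of edgeR 4.0.16 under R 4.3.3 after filterByExpr and TMM, and p-values of the whole table were adjusted by the Benjamini-Hochberg method. The study's thresholds were used with edgeR in place of its DESeq2, and DESeq2 1.42.0 was an alternative. SE was the log2 fold change over the square root of F, and intervals used the t distribution of the fit. CPM used TMM factors of all 9 libraries, and log2 CPM had an offset of 0.5. Each cow gave 1 library, so p-values measure the spread between these 3 cows per group. The fits were tested on simulated counts.

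The carriers and lists were chosen with earlier results of these data known. Named were the 9 carriers, *HP*, *SAA3* and *HAMP*, up to 3 genes of the smallest p per list and comparison, and up to 3 genes most like each carrier, of which 1 is not reported here. *PON3* values by cow and the ratios were chosen after values were seen. The alternatives were DESeq2, RLE size factors, library sizes without mitochondrial or carrier genes, no filter, at least 10 counts in every library, 1 fit of 9 libraries, a replicate block, a stricter FDR of 0.05, and each cow left out. The lists without TN replicate 1 and the hepatocyte markers without *FGB* were added after values were seen.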

Additional observations from a re-analysis of the deposited data

How the results depend on the processing

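With 3 cows per group and wide intervals, these data did not resolve differences of the size seen in most carriers. 0 of the 9 carriers were called in any comparison under each of 15 alternatives per comparison. Of 135 alternative log2 fold changes per comparison, 131 kept their direction in HS vs TN, 123 in HS vs PF and 135 in PF vs TN.

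With a cow left out in turn, the log2 fold changes that changed sign in HS vs TN ran from -0.32 (without HS replicate 3) to 0.66 in *TTR*, from -0.10 (without HS replicate 3) to 1.06 in *TF*, and from -0.051 (without TN replicate 1) to 0.53 in *PON1*, and *TTR* was at -0.16 without TN replicate 1. In HS vs PF they ran from -0.85 to 0.072 (without PF replicate 2) in *TTR*, from -0.46 (without HS replicate 3) to 0.36 in *RBP4*, from -0.61 to 0.30 (without HS replicate 1) in *TF*, from -0.46 to 0.13 (without PF replicate 1) in *GC*, from -0.57 (without HS replicate 3) to 0.33 in *AHSG*, and from -0.085 (without HS replicate 2) to 0.54 in *HPX*. The cause was not tested beyond the loss of that cow.

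The same replicate numbers did not mark shared animals, and the deviations of same-numbered cows correlated at -0.218 to 0.241. With the replicate block, 0 carriers were called in each comparison, *RBP4* was at -0.043 and *AHSG* at -0.10 in HS vs PF, and 2 listed genes were called in HS vs PF. All genes called then numbered 33 in HS vs TN, 6 in HS vs PF and 1 in PF vs TN, beside 13, 4 and 0.

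Of the genes on the other lists, 3 were called in HS vs TN, 9 with DESeq2, 6 without the filter, 1 in the fit of 9 libraries, 0 at an FDR under 0.05 and 0 to 1 with a cow left out. In HS vs PF 1 was called, 4 with DESeq2 and 7 without the filter, and in PF vs TN 0, 2 and 5. Over all genes, DESeq2 called 270, 122 and 91, and edgeR without the filter 124, 98 and 136, in HS vs TN, HS vs PF and PF vs TN. With *ALB* left out, the carriers took 4.41% of counts in PF and 4.16% in HS cows on average. They took 1.31, 4.03 and 3.23% in TN replicates 1 to 3. The lowest values of the other groups were 4.12% in PF replicate 3 and 3.07% in HS replicate 1.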

Other observations

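Regulators of hepatocyte secretory genes and of the acute phase response were read from a list of 22 genes, all tested in each comparison. Of these, 14 were higher and 8 lower in HS than in TN cows. In edgeR 4 of the higher and 1 of the lower were under an unadjusted p of 0.05, beside 9.36% of all genes. Without TN replicate 1, 16 were higher and 8 under that p, beside 963 of 14870 genes, with 0 called. Between PF and TN cows 15 were higher, 0 were called and 1 was under that p, beside 6.88% of all genes. Without TN replicate 1, 18 were higher and 1 under that p, beside 647 of 14865 genes, with 0 called. *FOXA3*, a forkhead factor of liver genes, was at 8.95, 9.14 and 18.5 CPM in TN, at 3.73, 21.3 and 17.2 CPM in PF, and at 48.0, 46.8 and 56.3 CPM in HS cows. Every HS cow was above every other cow. Between HS and TN cows 7 regulators were higher and 2 lower without overlap, beside 16.1% of all genes. *FOXA3* was the only regulator that edgeR called between HS and TN (log2 fold change 2.03, FDR 0.0919 in edgeR), beside 0.0892% of all genes. That call was made in the fit without TN replicate 3 and lost when any other single cow was left out, with a log2 fold change of 1.86 (FDR 0.207 in edgeR) without TN replicate 1. Between HS and PF cows it was at 1.83 with an FDR of 0.420 in edgeR, and DESeq2 called it. *CREB3L3*, a membrane-bound factor that acts on hepcidin and lipoprotein genes, was at 0.96 between HS and TN (FDR 0.322 in edgeR). DESeq2 called *CREB3L3* in that comparison, as it did *FOXA3*. *CEBPB*, a factor of the acute phase response, was at 0.60 between HS and TN (FDR 0.458 in edgeR). *FOXA2* was lower in HS than in PF cows without overlap, at -0.78 with an FDR of 0.712 in edgeR. Of the regulators 2 were higher and 2 lower without overlap in that comparison, beside 10.5% of all genes and 4.58% lower. *DDIT3*, a gene of the unfolded protein response, was at 0.51 between HS and PF (FDR 0.948) and at -0.73 between PF and TN (FDR 0.708) in edgeR.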
